A study of Mus musculus with 8 samples.

Results

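Skeletal muscle alpha-actin (Acta1), the fast skeletal regulatory myosin light chain (Mylpf) and muscle LIM protein (Csrp3) are the genes of this small muscle array that code for sarcomere proteins other than myosin heavy chains and troponins. They were taken by annotation alone, as the probes of the series table assigned to these 3 symbols. Each had 6 spots, which gave 18 of the 132 spots with a probe, and the table names 20 genes in all. RNA came from 2 muscles of CD-1 mice aged 4 to 5 weeks, an outbred strain with no allele or treatment given in the labels: the flexor digitorum brevis (FDB) of the foot, labelled fast, and the soleus of the calf, labelled slow. For amplification an amino allyl kit copied cDNA into antisense RNA by transcription, and un-amplified RNA was 10 µg of total RNA copied into amino allyl cDNA from an oligo(dT) primer. Each of 8 spotted arrays set an RNA in Cy3 against another in Cy5. In 4 arrays, fast was set against slow muscle with the dyes exchanged within each of 2 pairs. The other 4 formed a loop, in which both kinds of RNA from both muscles were used and each RNA met 2 of the others. The number of animals, and whether their RNA was pooled, is not in the labels, so p-values measure only the spread between these arrays, which may be technical.

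Actin polymerises into the thin filament, along which myosin heads pull during contraction, and Acta1 is the actin isoform of adult skeletal muscle. Each myosin heavy chain carries a regulatory and an essential light chain at its neck; Mylpf codes for the regulatory light chain of fast fibres, and its phosphorylation by a calmodulin-dependent kinase modulates force. Csrp3 is a protein of LIM domains, found at the Z-disc where thin filaments of neighbouring sarcomeres are anchored, and also in the nucleus, where it acts as a cofactor of myogenic transcription factors. In rodents it is abundant in the heart and, among skeletal muscles, in slow ones. In the mouse assembly GRCm38.p6, Acta1 (gene 11459) lies on chromosome 8 from 123891758 to 123894775. Mylpf (gene 17907) lies on chromosome 7 from 127208848 to 127214288, and Csrp3 (gene 13009) on the same chromosome from 48830398 to 48848051. Which exon or UTR the probes match was not analysed here.

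Several facts of the whole series bear on these genes. Of all spots, 80.3% were usable, against 42 of 48 for Acta1, 46 of 48 for Mylpf and 44 of 48 for Csrp3. In the dye swap, the columns labelled amplified in the authors' deposited table hold the ratios of the scanner files labelled un-amplified, and the reverse, so that which pair is amplified is not settled. The pair whose files carry the amplified label is therefore called the first and the other the second. Median background was between 594.5 and 2308.5 intensity units in the channels of the first pair and between 0 and 14 in those of the second. Log2 fast/slow ratios over 14 features spanned -0.99 to 0.79 in the first pair, and over 21 features -3.08 to 3.43 in the second. In the second array of the second pair, the dye in the file headers was opposite to that in the file names, and the header was used. The loop sheets name their channels A and B, which were taken as Cy3 and Cy5. The muscles were checked on fibre markers. All 5 fast-fibre markers on the array had a mean log2 fast/slow ratio above 0 (0.13 to 2.25, 2 of them called higher in fast muscle), and all 5 slow-fibre markers had one below 0 (-3.01 to -0.60, 3 called lower). In the loop alone, however, the fast markers Myh4 and Tnni2 lay on the slow side (-1.32 and -0.33), and the calls depend on settings given with the test. On the array with opposite dyes, the header dyes put all 5 fast-fibre markers on the fast side (log2 fast/slow 0.94 to 3.69). The slow-fibre markers lay on the slow side there, as far as -2.83 for Myh7, except Mb (0.86). The dyes of the file names turn each of these signs.

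Acta1 was bright on every array. Values are medians over usable spots, in the scanner's intensity units, and are compared only for the same gene. On the first array of the first pair, the Acta1 signal was 12399.6 in fast muscle (Cy3) and 16323 in slow (Cy5). With the dyes exchanged it was 14202.5 in fast (Cy5) and 23993 in slow (Cy3). Slow muscle was the brighter channel on both of these arrays. In the second pair, it was 14627 in fast (Cy3) and 31062 in slow (Cy5), and then 25119 in fast (Cy5) and 25351 in slow (Cy3). Before centring, the channels of the second pair were thus far apart on its first array and nearly level on the array with the dyes exchanged.

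Mylpf gave signals of 10167 in fast muscle (Cy3) and 7421 in slow (Cy5) on the first array of the first pair, and 11215 in fast (Cy5) and 11160 in slow (Cy3) on the other. In the second pair these were 28133 (fast, Cy3) and 9014 (slow, Cy5), then 13677 (fast, Cy5) and 13798 (slow, Cy3). Fast muscle was thus the brighter channel where it carried Cy3, before centring, and the channels were nearly level where it carried Cy5.

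Csrp3 differed in brightness between the pairs more than the other members did. In the first pair its medians were 8792 (fast, Cy3) and 7172 (slow, Cy5), then 6080 (fast, Cy5) and 5190 (slow, Cy3), between 3.77 and 9.03 times the local background. In the second pair they were 654 (fast, Cy3) and 226 (slow, Cy5), then 223 (fast, Cy5) and 391 (slow, Cy3), over a median local background of 0. The channel medians of Acta1 and Mylpf were at least 7421 units in both pairs, so that the dimness of the second pair held for Csrp3 and not for those 2 genes. By the labels of the scanner files the brighter pair for Csrp3 was the amplified one, and by those of the series table the un-amplified one. In the loop, the un-amplified channels of Csrp3 were the brighter. Intensities of different arrays were not brought to a common scale, and the difference between pairs was not tested.

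In the loop the sheets give integral intensities, divided here by 1000000. The Acta1 medians were 10.6 (Cy3) and 7.93 (Cy5) for slow amplified RNA, 3.85 and 8.47 for slow un-amplified, 5.88 and 4.01 for fast amplified, and 1.31 and 5.55 for fast un-amplified. Those of Mylpf were 1.16 (Cy3) and 1.07 (Cy5) for slow amplified RNA, 1.68 and 2.23 for slow un-amplified, 2.73 and 2.46 for fast amplified, and 3.05 and 3.25 for fast un-amplified. The channels of slow amplified RNA were the dimmest for Mylpf, while among the channels of Acta1 they were among the brightest. Csrp3 had 0.0742 (Cy3) and 0.0379 (Cy5) for slow amplified RNA and 0.173 and 0.0720 for fast amplified. From un-amplified RNA it had 0.449 (Cy3) and 1.20 (Cy5) for slow and 0.809 and 1.89 for fast muscle. These un-amplified channels of Csrp3 were between 4.46 and 19.9 times the local background. The median local background of its amplified channels was 0. Background was not subtracted from the loop values.

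**Figure D1:**
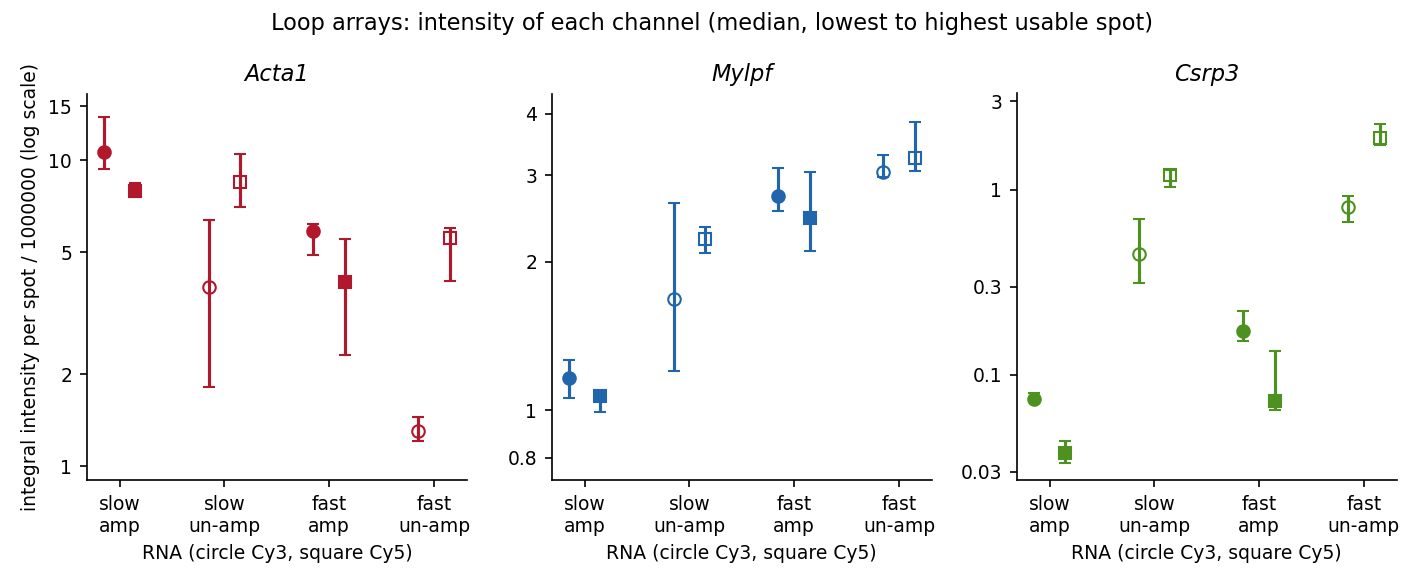
Integral intensity per spot on the 4 loop arrays, divided by 1000000 and on a log axis that differs between genes, for each RNA in Cy3 (circles) and Cy5 (squares); points are medians of usable spots and bars run from the lowest to the highest. The Csrp3 channels of amplified RNA, at most 0.220 for any spot, lie below all those of un-amplified RNA, at least 0.315, while the channels of Acta1 and Mylpf overlap.

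The ratios behind the tests are log2 Cy3/Cy5, averaged over spots and centred on the median over features of the same array, so that each value is relative to the median feature. For Acta1 they were -0.86 and 0.71 in the first pair and -2.08 and -0.39 in the second, where Cy3 held fast muscle on the first array of each pair and slow muscle on the other. In the loop Acta1 had 1.32 for slow amplified over slow un-amplified RNA and -0.48 for slow un-amplified over fast amplified. It had 0.65 for fast amplified over fast un-amplified and -3.32 for fast un-amplified over slow amplified. Where its RNAs differed in muscle and kind of RNA alike, the ratio was thus strongest when the slow amplified RNA was on the array.

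For Mylpf the ratios were 0.11 and -0.04 in the first pair and 0.62 and -0.37 in the second. In the loop, in the same order as for Acta1, they were 0.00, -0.89, 0.24 and 0.83. The 0.00 arose because Mylpf was itself the median feature of that array. The 4 Mylpf ratios farthest from 0 all came from arrays that set fast against slow muscle, as most of the arrays did. The first pair, which did so too, gave only 0.11 and -0.04.

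For Csrp3 the ratios were -0.07 and -0.27 in the first pair and 0.29 and 0.41 in the second, and in the loop -3.02, 2.14, -2.95 and 3.68. The signs in the loop followed the kind of RNA, with the un-amplified channel the higher on all 4 arrays. The SD between spots of 1 array was 0.04 to 0.41 for Acta1, 0.03 to 0.22 for Mylpf and 0.06 to 0.17 for Csrp3.

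**Figure D2:**
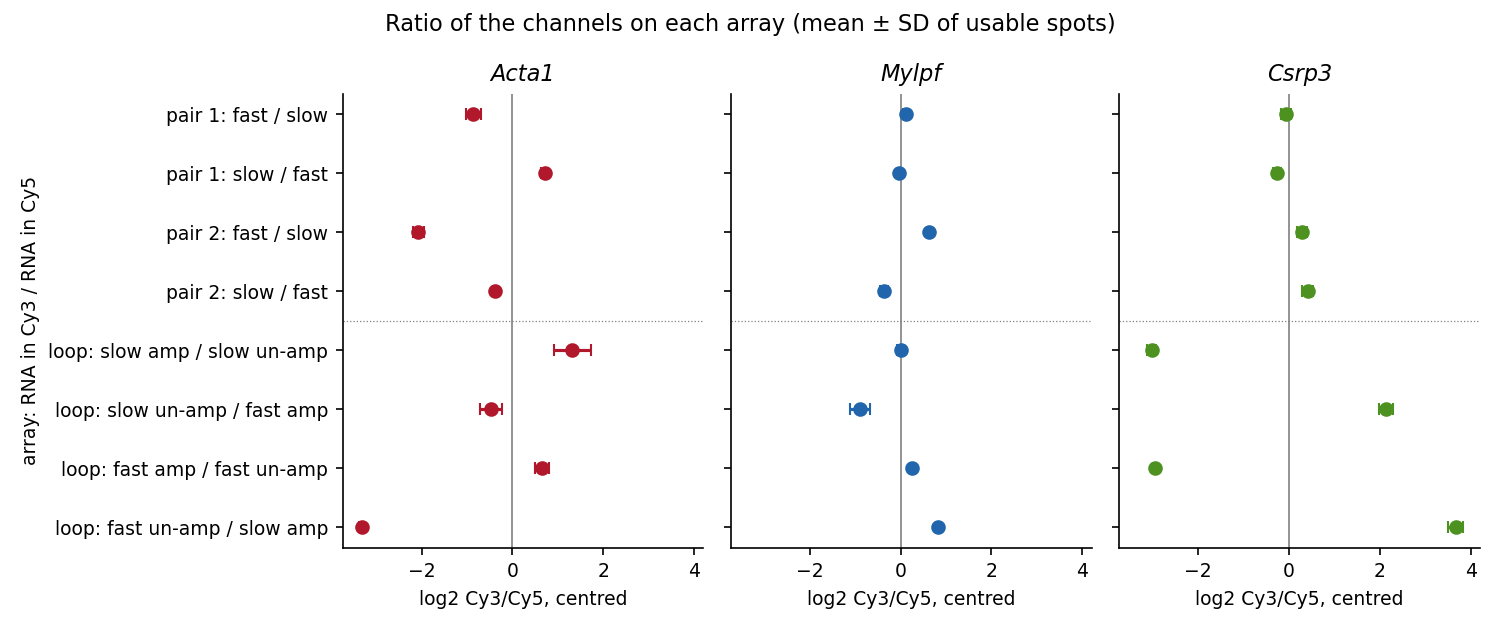
Log2 Cy3/Cy5, centred on the median feature of each array, for the 3 genes on all 8 arrays; points are means and bars the SD of the usable spots, and each array is named by the RNA in Cy3 over that in Cy5. Csrp3 stays between -0.27 and 0.41 in the dye-swap pairs and lies at least 2.14 from 0 in the loop, whereas Mylpf stays between -0.89 and 0.83 throughout.

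Whether fast and slow muscle differed was tested on 3 replicate ratios per gene, the mean of each dye-swap pair, turned to fast over slow, and the dye-balanced loop estimate. For Acta1 fast over slow was -0.78 on the log2 scale in the first pair, -0.84 in the second and -1.42 in the loop, a mean of -1.02 ± 0.35 (SD, n = 3). All of these lay on the side of slow muscle, and the mean corresponds to 0.495 of the slow level. The 95% interval from limma, with the variance pooled over features, was -1.95 to -0.09 (limma adjusted p = 0.116), so that Acta1 did not pass at an adjusted p of 0.05. Within the second pair its ratio was -2.08 with fast muscle in Cy3 and 0.39 with fast muscle in Cy5, whereas the first pair gave -0.86 and -0.71. The adjusted p was 0.0202 with all arrays in one fit, which counts the arrays of a pair as independent, and 0.0168 with the features near background left out, where 9 were tested.

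The log2 ratio of Mylpf was 0.07 in the first pair, 0.50 in the second and 0.86 in the loop. The mean was 0.48 ± 0.39 (SD, n = 3; interval -0.45 to 1.40, limma adjusted p = 0.584). Each ratio lay on the side of fast muscle, as did all 4 arrays of the pairs taken singly (0.11, 0.04, 0.62 and 0.37), relative to the median feature. Before centring, the arrays with slow muscle in Cy3 had log2 Cy3/Cy5 of 0.005 and 0.034, slightly on the side of slow muscle. The difference did not exceed the spread pooled over features, and the interval includes no difference as well as 2.65 times the slow level.

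Csrp3 had ratios of 0.10 in the first pair, -0.06 in the second and 0.77 in the loop, with a mean of 0.27 ± 0.44 (SD, n = 3; interval -0.66 to 1.20, adjusted p = 0.785). Single arrays of the pairs gave -0.07, 0.27, 0.29 and -0.41, on both sides of 0. The mean thus rests on the loop, and without it was 0.02.

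**Figure D3:**
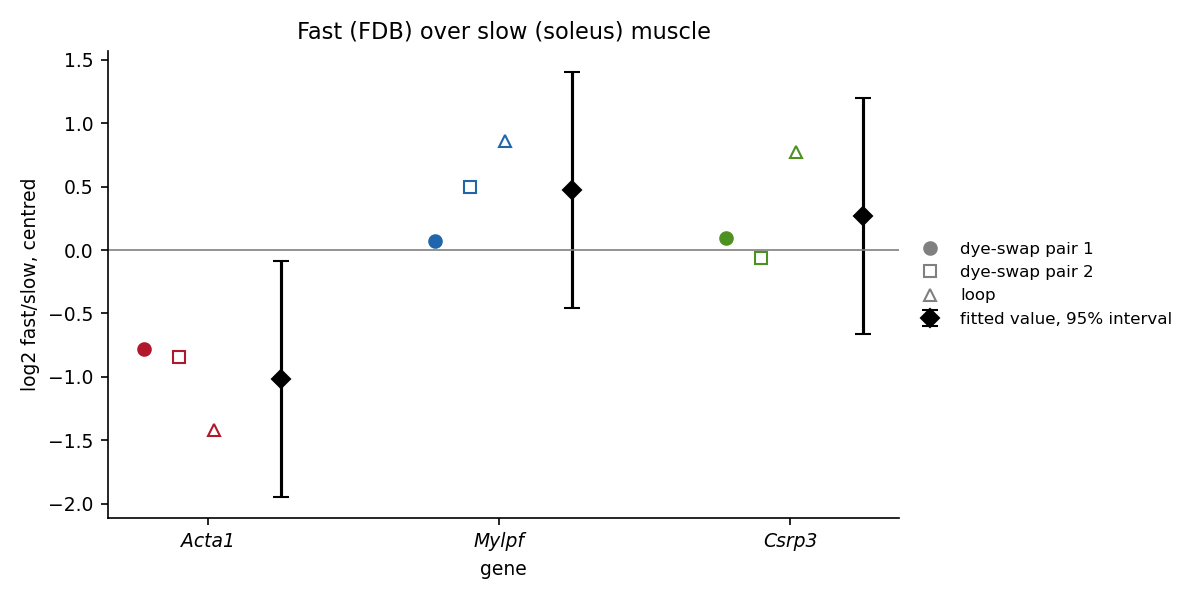
Log2 ratio of fast (FDB) over slow (soleus) muscle for each gene, relative to the median feature, in dye-swap pair 1, dye-swap pair 2 and the loop, with the mean and its 95% interval from limma (diamond). The Acta1 ratios lie between -1.42 and -0.78, those of Mylpf between 0.07 and 0.86, and those of Csrp3 on both sides of 0.

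None of the 3 genes passed this test, against 23.8% of the 21 features tested by limma (5 features), 9.52% higher and 14.3% lower in fast muscle. Before adjustment 6 features passed, and Acta1 was the member among them. When the variance was not pooled over features, 0 of the 21 were called, and 3 passed before adjustment, again with Acta1. Calls numbered 1 of 21 with loess (Myh7), 0 of 21 with the dyes of the file names (2 passed before adjustment), 0 of 13 without the second pair (1 before adjustment) and 1 of 14 without the loop (Pvalb). Of a list of 10 fast contractile genes, 5 are on the array, Mylpf among them, and 1 was called, Myh1, the myosin heavy chain of IIx fibres (log2 1.72, adjusted p = 0.00434). The median log2 ratio of these 5 was 0.48, which is the value of Mylpf itself, against -0.06 over all features. Tnnc2, fast troponin C, had a mean of 0.32 (n = 3). Myh4, the IIb heavy chain, had 2.31 in the second pair and -1.32 in the loop, a mean of 0.49 ± 2.56 (SD, n = 2). Tnni2, fast troponin I, had 0.59 and -0.33, a mean of 0.13 ± 0.65 (SD, n = 2). Of 7 slow contractile genes 3 are on the array, and 2 were lower in fast muscle, Myh7, the slow heavy chain (-3.01, n = 2), and Tnnc1, slow troponin C (-1.35). Of 12 thin-filament and Z-disc genes, Acta1 and Csrp3 are the 2 on the array.

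Amplification was compared within the loop, where the amplified RNA was in Cy3 on 2 arrays and in Cy5 on 2. Csrp3 was 7.71-fold lower in amplified than in un-amplified RNA, relative to the median feature (log2 -2.95, SE 0.52, 95% interval -4.02 to -1.87, 4 arrays, limma adjusted p = 0.000156). Its estimates were -2.99 in slow and -2.91 in fast muscle, and the amplified channel was the lower on 4 of 4 arrays. Acta1 was higher in amplified RNA, by 2.71-fold (log2 1.44, SE 0.52, interval 0.37 to 2.51, adjusted p = 0.0257), with 1.77 in slow and 1.11 in fast muscle. Mylpf had a log2 ratio of 0.08 (SE 0.52, interval -0.999 to 1.15, adjusted p = 0.886), with -0.04 in slow and 0.19 in fast muscle. Mylpf set the centre of the array within slow muscle, so that its ratio there was 0 by construction.

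**Figure D4:**
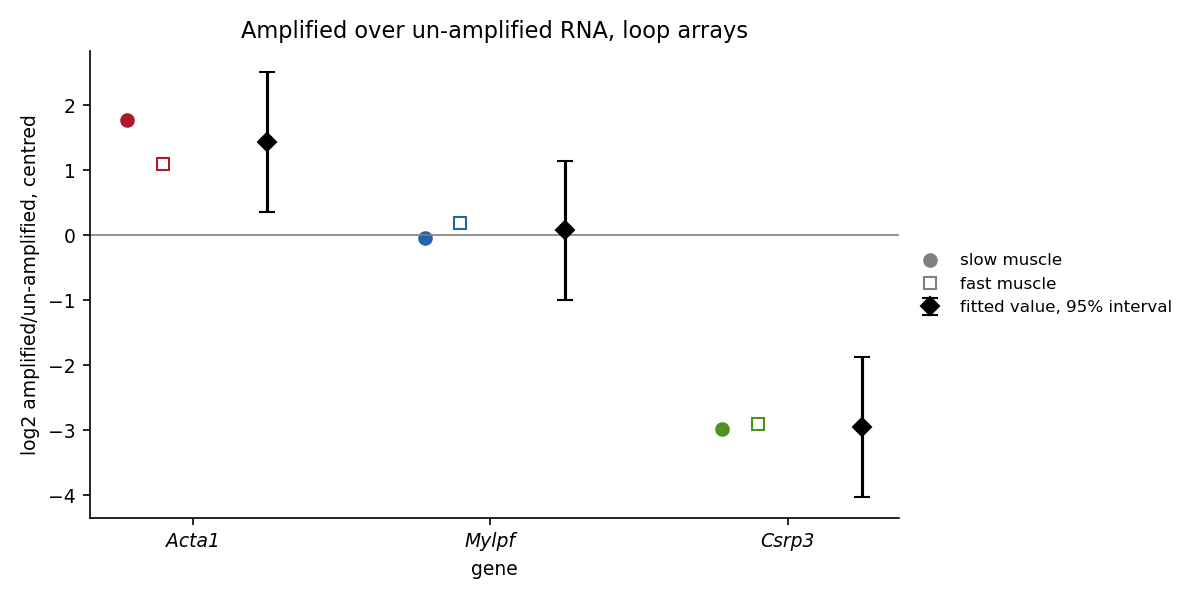
Log2 ratio of amplified over un-amplified RNA on the loop arrays, relative to the median feature, estimated in slow and in fast muscle, with the joint value and its 95% interval from limma (diamond). Acta1 lies above 0 and Csrp3 near -2.95 in both muscles, and Mylpf lies within 0.19 of 0.

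The calls on 2 of the 3 genes stand beside 42.9% of the 21 features tested that limma called, 28.6% higher and 14.3% lower. The standard error is pooled over features and measures how far the muscles differed in their amplification ratios, not a spread between repeated amplifications, and each of the 4 RNAs may be a single preparation. When the variance was not pooled, neither gene was called, nor was any of the 21 features (0 called, and 2 that passed before adjustment, Csrp3 among them). Without centring, the median over all features moved by -0.63, and the ratios were -3.58 for Csrp3, 0.81 for Acta1 (limma adjusted p = 0.0979) and -0.55 for Mylpf, whose sign turned. With loess within each array they were -2.06 for Csrp3 (adjusted p = 0.0963), 0.27 for Acta1 (0.483) and -1.0 for Mylpf (0.0963). With marked spots kept Acta1 had 0.67 (adjusted p = 0.182). That setting filled loop intensities of 0 with the lowest positive intensity of the same channel. Marked Acta1 loop spots included such zeros, so that this value rests partly on filled intensities. The direction for Csrp3 was thus lower in amplified RNA under each of these scalings. Acta1 was not called under any of them, and its ratio stayed above 0.

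The authors' deposited table, whose loop ratios are scaled by 1 factor per array, gives Csrp3 mean ratios of 0.0722 for slow amplified over slow un-amplified RNA and 0.0997 for fast amplified over fast un-amplified. For un-amplified over amplified RNA it gives Csrp3 7.20 (slow over fast muscle) and 29.5 (fast over slow). The ratios of Acta1 in that table were 1.51 and 1.21 for amplified over un-amplified within slow and fast muscle, and those of Mylpf 0.588 and 0.906.

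In the fast contractile list 1 of 5 measured genes was called higher in amplified RNA, Tnni2 (log2 2.89, limma adjusted p = 0.000156), and in the slow list 2 of 3, Myh7 (2.27) and Tnnc1 (1.71). Not called were Tnnc2 (0.99), Myh4 (0.94), Mylpf (0.08) and Myh1 (-0.23) of the fast list. Tnni1, slow troponin I, was not called either (0.35). Over all features 28.6% were called higher. Myh7 and Tnnc1 were not called without centring or with marked spots kept, and Tnni2 was; none of them was called with loess or without pooling of the variance. The list medians were 0.94 and 1.71, against 0.08 over all features. The direction of amplification was thus not the same for all the sarcomere genes measured: Csrp3 was on the opposite side of the median of all features from Acta1. Mylpf was itself that median feature, so that it lay there by definition.

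A limit of the Acta1 value is where its spots lie on the grid. Of its 6 spots 3 are in rows 1 to 3 and 3 in rows 4 to 6 of another column, and none of the upper ones was usable on the array of fast amplified against fast un-amplified RNA. On the array that compared both kinds of slow-muscle RNA, the upper spots had a mean of 1.65 and the lower ones 0.98. With the upper spots left out everywhere, an alternative chosen after seeing the data, the amplified/un-amplified ratio was 1.32 (adjusted p = 0.0419) and the fast/slow mean was -1.02. Up to 2.71% of the pixels of a usable Acta1 loop spot were saturated, in 5 of 19 spots, and none of Mylpf or Csrp3. On the array of slow un-amplified against fast amplified RNA, signals rose down the grid. The Mylpf signal in Cy3 went from 1.20 in row 4 to 2.63 in row 9 on the divided scale, and that in Cy5 from 2.10 to 3.05. Its uncentred log2 ratio went from -0.80 to -0.21. That of Csrp3 was 2.29 in row 4, 2.65 in row 6 and 2.37 in row 9. The centred ratio of Acta1 on this array had a mean of -0.64 in the upper spots and -0.32 in the lower ones.

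Whether amplification changed the fast/slow ratio was asked by setting the ratio from amplified RNA against that from un-amplified RNA. In the loop the Acta1 fast/slow ratio was -1.76 in amplified and -1.09 in un-amplified RNA. Mylpf had 0.98 and 0.74, and Csrp3 0.81 and 0.73. In the loop the direction was thus the same in both kinds of RNA for each gene, whereas Csrp3 had 0.10 in the first and -0.06 in the second dye-swap pair. With the labels of the scanner files, the amplified minus un-amplified difference of Acta1 was 0.06 between the pairs and -0.67 in the loop. These differences were -0.42 and 0.24 for Mylpf, and 0.16 and 0.08 for Csrp3. The means were -0.31, -0.09 and 0.12, each with an adjusted p of 0.998 by limma, and the intervals reached about 2.34 to either side. The loop value of Acta1 sets unlike spots against each other, since its upper spots were usable within slow but not within fast muscle. With the upper spots left out everywhere, the mean of Acta1 was -0.105. Of the 13 features tested limma called none (0%), 0 passed before adjustment, and 0 were called when the variance was not pooled. With the labels of the series table the means were -0.36, 0.33 and -0.04, and none of the 3 genes was called. Under that labelling limma called 5 of the 13 features, namely Mb, Myh1, Tnnc1, Pvalb and the unnamed feature of probes 97 to 102. With the labels of the files, a several-fold effect of amplification on the fast/slow ratio of these genes was not detectable by this pooled test. The width of the intervals comes from the variance pooled over the 13 features (SD 1.53) under that labelling. The SDs of the members themselves, from 2 values each, were 0.51 for Acta1, 0.47 for Mylpf and 0.06 for Csrp3.

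A dye effect is a ratio of Cy3 over Cy5 that remains when the RNAs in both dyes are balanced, as within a dye-swap pair or around the loop. For Acta1 it was -0.08 in the first pair, -1.23 in the second and -0.46 in the loop, a mean of -0.59 ± 0.59 (SD, n = 3; 95% interval -1.19 to 0.01, limma adjusted p = 0.568). Relative to the median feature Cy5 was favoured in each, by most in the second pair, whose arrays gave Acta1 fast/slow ratios of opposite sign. Mylpf had dye effects of 0.04, 0.12 and 0.04 (mean 0.07, interval -0.30 to 0.44, adjusted p = 0.923). Csrp3 had -0.17, 0.35 and -0.04 (mean 0.05, interval -0.38 to 0.48, adjusted p = 0.923). Of the 21 features limma called none (0%), and 1 passed before adjustment. When the variance was not pooled 0 were called, and 2 passed before adjustment.

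**Figure D5:**
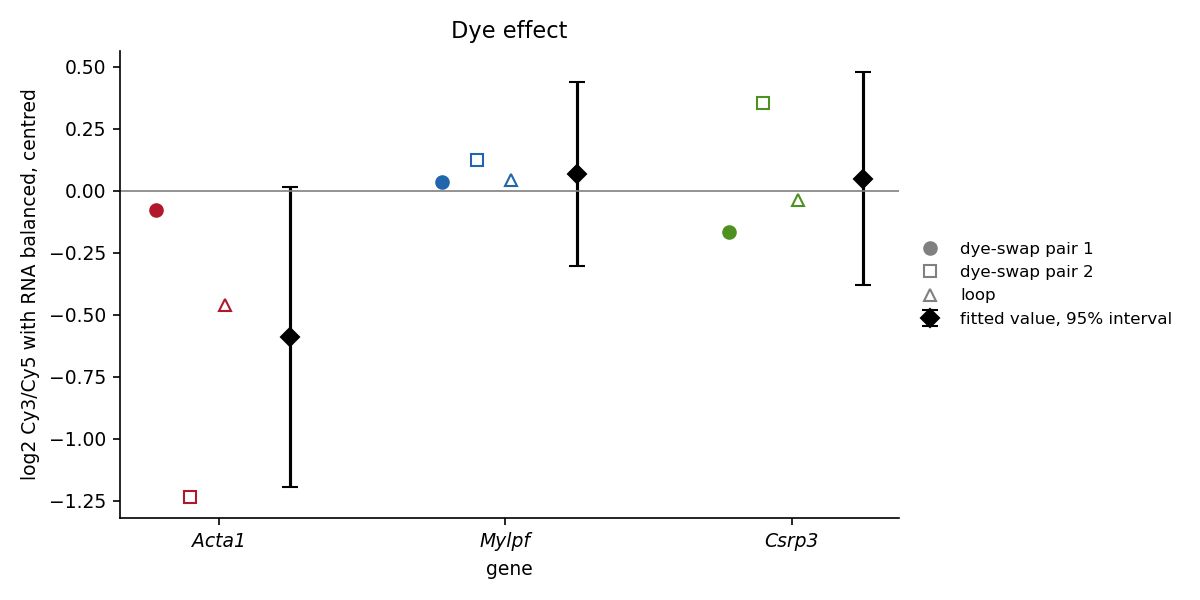
Dye effect on the log2 scale, Cy3 over Cy5 with the RNAs balanced and relative to the median feature, for dye-swap pair 1, dye-swap pair 2 and the loop, with the mean and its 95% interval from limma (diamond). Mylpf stays between 0.04 and 0.12, Csrp3 lies on both sides of 0, and Acta1 ranges from -0.08 to -1.23.

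To see which features ran most like each gene, the mean absolute difference in centred log2 Cy3/Cy5 was taken over the arrays that had both, among 20 other features. The closest to Acta1 was Mb, the oxygen store myoglobin, at 0.49 over 8 arrays, and next Tnnc1, at 0.58 over 8. Mb was also higher in amplified RNA (log2 1.48, adjusted p = 0.0257), a call that ended without centring, with loess, with marked spots kept and without pooling of the variance. Its mean log2 fast/slow ratio was -0.60. Closest to Mylpf were Calm2, a calmodulin gene (0.50 over 7 arrays), and Ppp2ca, a catalytic subunit of protein phosphatase 2A (0.62 over 7). For Csrp3 they were CAMTA1, annotated as a calmodulin-binding transcription activator (0.54 over 6 arrays), and the unnamed feature of probes 97 to 102 (0.84 over 8), which was lower in amplified RNA as well (-1.46, adjusted p = 0.0257; not called with loess or without pooling). CAMTA1 had no usable spot on the loop arrays where Csrp3 had -3.02 and 3.68. On the array of slow un-amplified against fast amplified RNA its ratio came from 1 spot. These values share the arrays, the dyes and the centring. The members ran less like each other, with 1.34 between Acta1 and Mylpf, 1.70 between Mylpf and Csrp3 and 2.81 between Acta1 and Csrp3.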

How the data were processed

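The 4 dye-swap arrays have a deposited file per channel, with pixel intensity and background intensity per spot from ImaGene 5.5, the signal area and a code for poor spots, per the file headers. The deposited loop sheets hold integral intensity, the fraction of unsaturated pixels and a letter for usable spots. The deposited series table holds Cy3/Cy5 ratio values, which the authors scaled by 1 factor per array; before scaling they matched the ratio of integral intensities, for the dye swap the median signal less background times the signal area (column medians 0.619 to 2.19; its rule is not stated in them). Matching those ratios to spots placed the 132 probes.

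Dye-swap signals were corrected by normexp (offset 50). Loop intensities were taken as deposited, with no background correction. Marked spots were left out, log2 ratios of the 6 spots averaged, and each array centred on its median feature. In the alternative that kept marked spots, loop intensities of 0 were set to the lowest positive intensity of their channel, so its ratios are partly filled values. limma 3.58.1 in R 4.3.3 tested features with at least 2 ratios, two-sided, with Benjamini-Hochberg adjustment over all features and a threshold of 0.05. The fits were run on simulated data in which every feature had the same noise. Such data cannot test the pooling of the variance where features differ in spread. The loop fit had terms for amplification, muscle and dye. The number of arrays limits the precision. Members, lists, tests and the likeness rule were chosen with earlier results of these data known. Named are the members, the 2 features most like each, and the measured genes of the contractile and thin-filament lists. Pvalb (parvalbumin, a calcium buffer of fast fibres) was named after its values were seen. The labels' protocol text of the loop arrays describes the un-amplified method alone; their kinds of RNA were taken from the sample labels.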

Additional observations from a re-analysis of the deposited data

How the results depend on the processing

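For fast against slow muscle, Acta1 kept a negative and Mylpf and Csrp3 a positive mean under each alternative run. Acta1 was called, making 1 member in place of 0, with all arrays in one fit and with features near background left out. Leaving out 1 replicate ratio at a time gave -1.13 to -0.81 for Acta1, 0.28 to 0.68 for Mylpf and 0.02 to 0.43 for Csrp3, with no call. For amplification, 2 members were called; 1 was without centring or with marked spots kept, and 0 with loess or each feature's own variance. Of all features 9 were called, 4 without centring, 4 with marked spots kept and 0 with loess. The Mylpf amplification ratio reversed to -0.55 without centring and -1.0 with loess. The Mylpf difference in fast/slow ratio reversed to 0.0077 without centring, 0.56 with marked spots kept, 0.26 with the ratios of the series table, 0.33 with its labels and 0.094 with file-name dyes; that of Csrp3 to -0.090, -0.041 and -0.088 in the last 3 settings. The Csrp3 dye effect reversed to -0.20 with loess, -0.11 with marked spots kept and -0.089 with file-name dyes, and with 1 replicate left out at a time it ran from -0.10 (without the second pair) to 0.157. None of these passed a test, and the cause was not tested. Without the loop array within slow or within fast muscle, Csrp3 had -2.93 and -2.97 for amplification and Acta1 1.27 and 1.61; leaving out an array that crosses the muscles could give no value, since amplification and dye then cannot be told apart. No paired analysis was possible because the labels give the arrays no replicate numbers (those used here only name arrays), beyond the pairing of RNAs on each array and of arrays in a dye swap, which the ratios already hold. The dim Csrp3 signals of the second pair limit its ratio there.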
